A study of Mus musculus with 3 samples.

Results

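Heat shock proteins and chaperones were followed as 1 gene module through the cell classes of the mouse retina. Members were taken by gene symbol: each HSP gene (symbols starting Hsp with a digit or with a, b, d, e or h), each DNAJA, DNAJB and DNAJC gene, and the CCT genes named Cct2 to Cct8. Tcp1, the gene of the first subunit of the CCT complex, carries another symbol and is not a member. This gave 79 of the 18545 genes of the matrix, and all 79 had at least 1 unique molecular identifier (UMI, 1 captured transcript end) in each library. Mice were 8 weeks old. The study describes the rd10 mice of this experiment as reared in the dark and does not state how its WT mice were reared. Papain-dissociated retinal cells were made into 3 droplet-based single-cell RNA-seq libraries, 1 per group. The groups were wild-type C57BL/6J mice (WT, female and male pooled, plain chow), female rd10 mice on the same chow without drug (rd10-vehicle) and female rd10 mice fed tamsulosin, metoprolol and bromocriptine in the chow (rd10-TMB). The rd10 mutation is a point mutation of the rod phosphodiesterase gene Pde6b, after which rods and then cones are lost, and tag counts cannot show it. Tamsulosin blocks alpha-1 adrenergic receptors, metoprolol blocks beta-1 adrenergic receptors and bromocriptine activates D2-like dopamine receptors. The labels give 4 mice per pool, 1 retina each, whereas the study's methods state a smaller number for rd10 mice.

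Chaperones bind unfolded or partly folded proteins and help them to fold, to cross membranes or to be degraded. HSP70 proteins do this in cycles of ATP hydrolysis that DNAJ proteins start and HSP110 proteins reset, HSP90 proteins finish the folding of kinases and receptors, the CCT complex folds actin and tubulin, and small heat shock proteins hold unfolding proteins without ATP. Under heat or oxidative stress the transcription factor HSF1 raises a cytosolic subset of them, among them Hspa1a, Dnajb1, Hsph1 and Hspb1, whereas misfolded protein in the endoplasmic reticulum raises Hspa5 and Hsp90b1 through the unfolded protein response. In the retina, photoreceptors lean on chaperones for the load of rhodopsin and of the phosphodiesterase subunits.

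The WT library held 4478 cells, the rd10-vehicle library 5952 and the rd10-TMB library 4812, with medians of 3509.5, 4811.5 and 4772.5 UMIs per cell. The 21 deposited clusters were named from marker genes, and 10 classes had at least 50 cells in each library: Müller glia-like (MG-like), rod-like, cone-like, rod bipolar-like (RBC-like), ON and OFF cone bipolar-like, amacrine-like and endothelial-like cells and the unnamed clusters 6 and 10. Of the fixed markers, 12 of 12 were raised in the MG-like and rod-like clusters, 11 of 12 in the cone-like, 11 of 11 in the RBC-like and 10 of 10 in the endothelial-like cluster. The ON cone bipolar-like name rested on 8 of 12 markers, none of them among the top 10 genes of the cluster. MG-like cells numbered 530 (WT), 2492 (rd10-vehicle) and 1748 (rd10-TMB), and rod-like cells 1180, 556 and 746. With 1 library per group no test between groups was possible, and genotype, diet and library cannot be told apart. Since the WT pool held both sexes, ratios to WT were also computed from the WT cells with an Xist UMI and none of a Y-linked gene. All brackets are 95% intervals that cover counting error only. Highest and lowest levels by class refer to these 10 classes. Levels are given in CPM, the UMIs of a gene scaled to the UMIs of all genes in the same class and library. Since 1 UMI stands for 1 transcript end, levels of different genes are not scaled by length.

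Promoter sequences of the members that the results turn on are shown first, because heat shock factors and the unfolded protein response act at known DNA elements there. RefSeq windows from 250 bases before to 50 after a start site (GRCm38.p6) were held for 64 of the 79 members, 83 windows in all. A heat shock element is built of GAA units in alternating direction, and its 2-unit forms are GAANNTTC and TTCNNGAA, each its own reverse complement. GAANNTTC was found in 7.86% of the 32851 windows of all genes, or for 9.04% of the 27025 genes with a window, and for 14 of the 64 members with one: Cct2, Dnaja1, Dnaja4, Dnajb6, Dnajc27, Hspa1a, Hspa1b, Hspb1, Hspb3, Hspb6, Hspb8, Hspd1, Hspe1 and Hsph1. TTCNNGAA was found in 8.52% of all windows, or for 9.6% of genes, and for 8 members: Cct5, Cct6a, Dnajb4, Dnajb6, Dnajc10, Hspd1, Hspe1 and Hsph1. The 3-unit form, GAANNTTC followed directly by NNGAA, was searched on both strands and contains both 2-unit forms. It was found in 0.603% of all windows, or for 0.662% of genes, and for 4 members, Dnajb6, Hspd1, Hspe1 and Hsph1. Hspd1 and Hspe1 are adjacent on opposite strands and their windows hold the same site. The endoplasmic reticulum stress element, CCAAT and CCACG with 9 bases of any kind between them, was also searched on both strands and was found in 0.119% of all windows, or for 0.137% of genes, and for Hspa5, Hsp90b1 and Dnajc3. No form was found in the windows of Dnajb1, which says only that these letters are not there.

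The first set below holds stretches before the start sites of small heat shock and HSP70 genes that stood apart in glia, endothelium or photoreceptors, with GAANNTTC in capitals. Coordinates are those of GRCm38, the sequence is written along the strand given, and positions are counted from the start site.
Hspb1, chr5:135887772-135887859, plus strand, first capitals at -117 and -97: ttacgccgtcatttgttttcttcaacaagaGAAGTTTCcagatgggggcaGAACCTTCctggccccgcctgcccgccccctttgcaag
Hspa1a, chr17:34972223-34972290, minus strand, at -104: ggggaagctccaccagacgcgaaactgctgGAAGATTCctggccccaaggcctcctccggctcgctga
Hspb6, chr7:30553151-30553218, plus strand, at -120 in the second of 2 windows, the first of which holds no match: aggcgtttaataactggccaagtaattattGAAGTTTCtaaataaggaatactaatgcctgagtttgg
The stretch of Hspa1b at chr17:34959305-34959372 had the same letters as that of Hspa1a, and the windows of this pair of adjacent genes were the same at 296 of 300 positions. The second set holds, as 30-base sites, the 3-unit form of Hsph1, an HSP110 nucleotide exchange factor, and the site that Hspe1, the mitochondrial co-chaperonin, shares with Hspd1, where the capitals span 2 overlapping matches. The match of Hsph1 lies after its start site.
Hspe1, chr1:55088053-55088082, plus strand, matches at -89 and -84: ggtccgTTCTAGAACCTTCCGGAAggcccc
Hsph1, chr5:149636279-149636308, minus strand, at 15 in the first window and 36 in the second: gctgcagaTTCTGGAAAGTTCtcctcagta
The third set holds the endoplasmic reticulum stress element of Hspa5, the HSP70 of that compartment, and of Dnajc3, its DNAJ partner and an inhibitor of the kinase PERK.
Hspa5, chr2:34772020-34772049, plus strand, at -65: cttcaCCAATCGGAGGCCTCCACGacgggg
Dnajc3, chr14:118937797-118937875, plus strand, at -105: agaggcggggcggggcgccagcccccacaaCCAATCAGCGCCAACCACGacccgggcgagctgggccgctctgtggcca

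The members took 1.06% (WT), 0.936% (rd10-vehicle) and 0.933% (rd10-TMB) of all UMIs. The 5 most counted genes held 47.3% of the members' UMIs: Hsp90aa1 (137141 UMIs), Hsp90ab1 (99329), Hspa8 (78880), Dnaja1 (41465) and Hsp90b1 (29958). Of the families reported here, which do not hold all members, the 3 HSP90 genes held 32.6% of the members' UMIs, the 11 HSP70 genes 16.9%, the 26 DNAJC genes 13.1%, the 8 CCT genes 10.3%, the 12 DNAJB genes 8.18%, the 4 DNAJA genes 7.09%, the 3 HSP110 genes 4.12%, the 7 small heat shock genes 3.19% and the HSP70-binding genes Hspbp1 and Hspbap1 0.290%. At the other end, 63 members had at least 1000 UMIs, 9 had fewer than that but at least 100 and 7 had fewer than 100: Cct6b, Dnajb7, Dnajb13, Dnajc22, Hspa1l, Hspb3 and Hspb7. Summed over members, the level in cone-like cells was 11449 CPM (WT), 11708 (rd10-vehicle) and 12345 (rd10-TMB), in rod-like cells 10369.9 CPM (WT), 10924 (rd10-vehicle) and 11096 (rd10-TMB), and in MG-like cells 7692 CPM (WT), 8358 (rd10-vehicle) and 7979.6 (rd10-TMB). MG-like cells thus had the lowest sum of these classes in each library. Of the 63 members with at least 1000 UMIs, 30 were highest in the same class of the 10 in all 3 libraries, 8 of them in endothelial-like, 7 in cone-like and 4 in rod-like cells. The same count was not made over all genes, so these numbers do not set the module apart from other genes.

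Among the HSP90 genes the paralogs divided the classes between them. The inducible cytosolic form Hsp90aa1 was highest in rod-like cells, at 3953 CPM (WT), 4291 (rd10-vehicle) and 4483 (rd10-TMB), and lowest in endothelial-like cells, at 832 CPM (WT), 653 (rd10-vehicle) and 638 (rd10-TMB). Its constitutive paralog Hsp90ab1 ran the other way, at 1989.8 CPM (WT), 2231 (rd10-vehicle) and 2272 (rd10-TMB) in endothelial-like cells against 361, 367 and 379.8 CPM in rod-like cells in the same order of libraries. Hsp90aa1 thus exceeded Hsp90ab1 in rods and stood below it in endothelium in each of the 3 libraries. Cone-like cells had 2687, 2922 and 2879 CPM of Hsp90aa1 and MG-like cells 1113, 1199.6 and 1146 CPM, where Hsp90ab1 was similar at 1236, 1281 and 1188 CPM. Hsp90b1, the form of the endoplasmic reticulum, was spread more evenly, from 236 CPM in MG-like cells of rd10-TMB to 621 CPM in cluster 10 of rd10-vehicle.

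**Figure D1:**
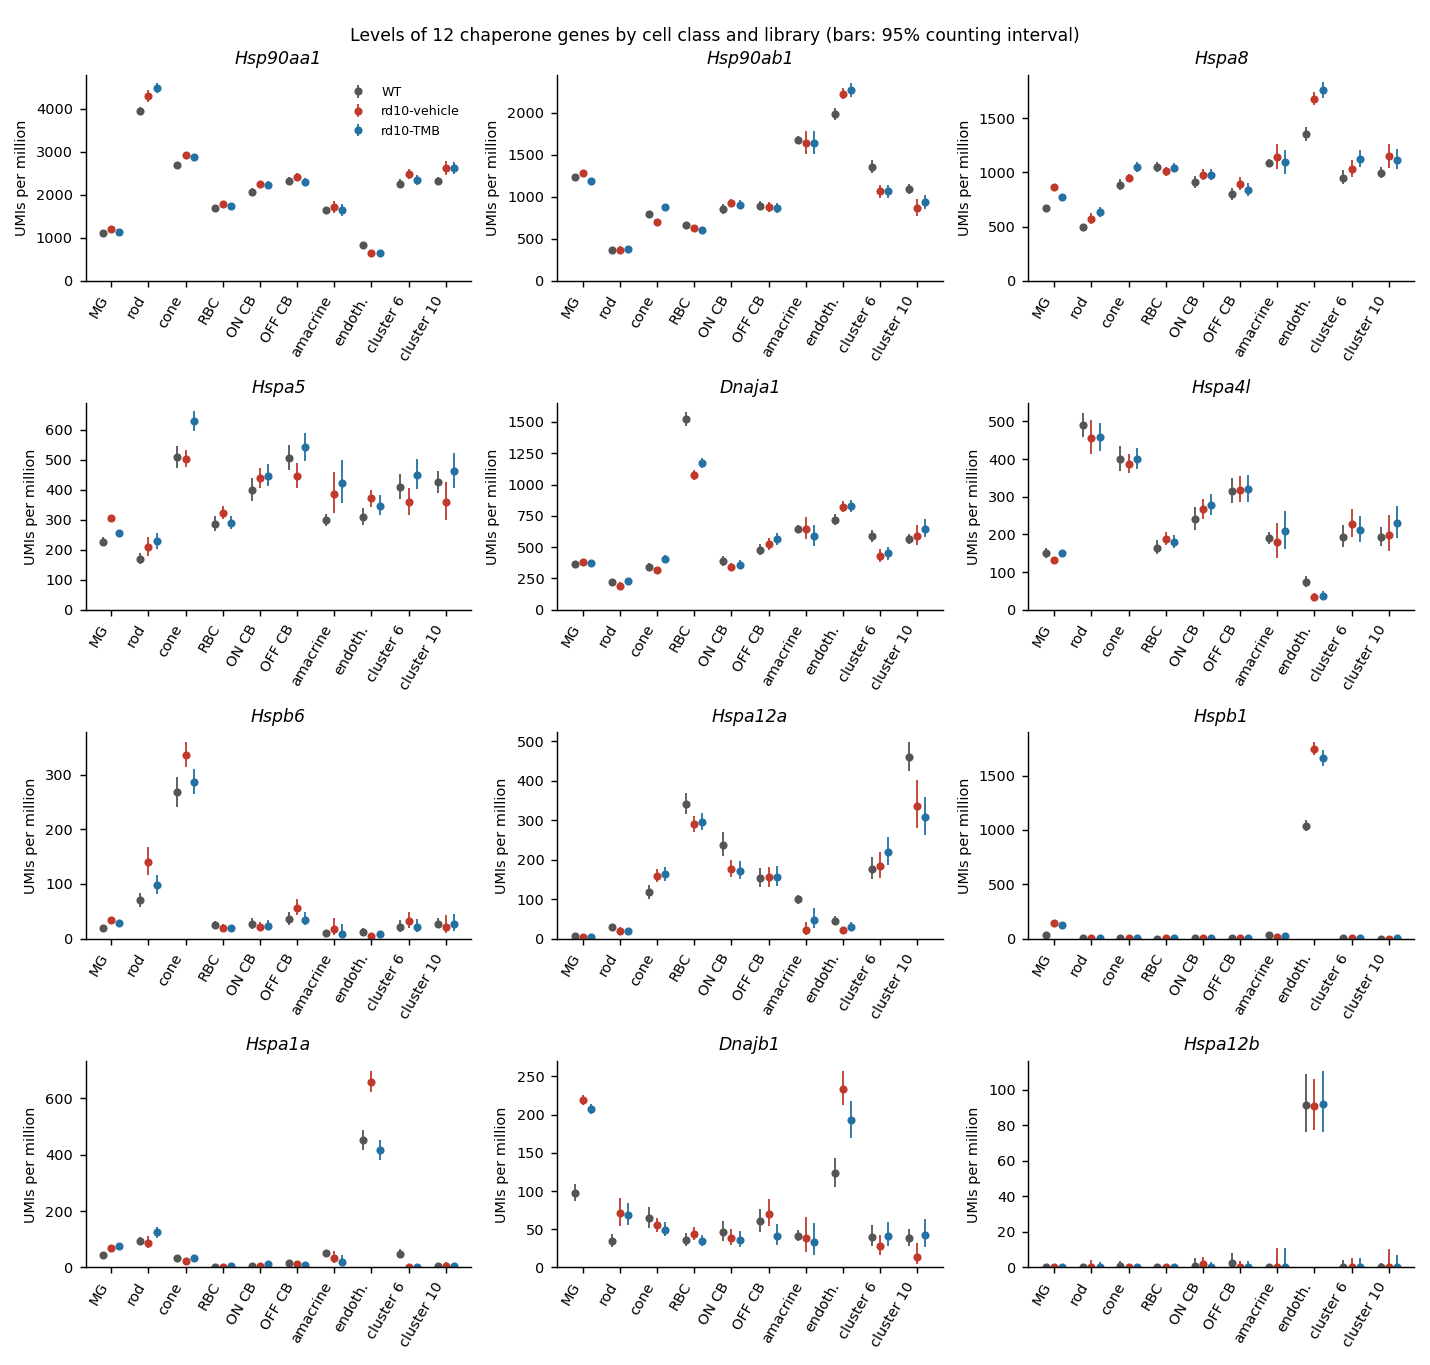
Level of 12 members in 10 cell classes, 1 panel per gene, with the class on one axis and the level in CPM on the other. Points are the 3 libraries and bars the 95% counting intervals. Hsp90aa1 is highest in rod-like cells, Hspb6 in cone-like cells, and Hspb1, Hspa1a and Hspa12b in endothelial-like cells, in each library.

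The HSP70 genes ranged from ubiquitous to nearly class-bound. Hspa8, the constitutive cytosolic HSP70 that also uncoats clathrin vesicles, had 1353 CPM (WT), 1678 (rd10-vehicle) and 1758 (rd10-TMB) in endothelial-like, 1047, 1008 and 1042 CPM in RBC-like and 493, 573 and 631 CPM in rod-like cells. Hspa5 (also BiP) had 509, 503 and 628 CPM in cone-like and 169.6, 209 and 229 CPM in rod-like cells. Every class therefore carried both genes at a high level, photoreceptors differing between rods and cones. Of the 10 classes, the stress-inducible Hspa1a was highest in endothelial-like cells, at 451 CPM (WT), 658 (rd10-vehicle) and 416 (rd10-TMB), followed by rod-like cells at 93.4, 88.3 and 124 CPM, and was near 0 in RBC-like cells, at 1.53, 1.15 and 6.67 CPM. Hspa1b, its near-identical neighbour, had 112, 129 and 69.2 CPM in endothelial-like cells. The split between the pair is uncertain, since 63.8% of the 31-base words of the Hspa1a transcript also occur in Hspa1b, although 0 of 470 words of its last 500 bases do. Hspa12b, an HSP70 relative of endothelium, had 91.7, 90.9 and 92.2 CPM in endothelial-like cells, 352-fold [236 to 610] its level in all other cells. Its paralog Hspa12a was highest in cluster 10 and RBC-like cells, at 342, 289 and 296 CPM in RBC-like cells and 460.1, 337 and 307 CPM in cluster 10 against 6.63, 4.32 and 4.11 CPM in MG-like cells. Hspa2 had 46.6, 84.8 and 85.9 CPM in endothelial-like cells, 6.39-fold its level elsewhere. The remaining HSP70 genes were flat by comparison, with the mitochondrial Hspa9 at 59.6, 70 and 70.3 CPM in MG-like and 127, 110.1 and 123 CPM in RBC-like cells, Hspa13 at 51.5, 36.2 and 38.9 CPM in MG-like cells and the ribosome-linked Hspa14 at 89, 74.4 and 88.6 CPM in rod-like cells.

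The HSP110 genes, which exchange the nucleotide of HSP70, each had their own pattern over classes. Hspa4l was highest in rod-like cells, at 489 CPM (WT), 457 (rd10-vehicle) and 457 (rd10-TMB), and cone-like cells, at 401, 388 and 401 CPM, and had 73.8, 34.4 and 37.4 CPM in endothelial-like cells. Hsph1 had 138, 148 and 167 CPM in cone-like cells and 32.8, 37.2 and 41.1 CPM in rod-like cells. Hspa4 had 246, 286 and 223 CPM in amacrine-like and 117, 119 and 115 CPM in MG-like cells. Of the binding proteins, Hspbp1 lay between 12.7 and 36.8 CPM across the 10 classes and Hspbap1 below 10 CPM in all of them.

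DNAJA and DNAJB proteins hand clients to HSP70. Dnaja1 was highest in RBC-like cells, at 1522 CPM [1468 to 1577] for WT, 1073 CPM [1033 to 1113] for rd10-vehicle and 1171 CPM [1131 to 1213] for rd10-TMB, with 218, 191 and 226 CPM in rod-like cells. Dnaja2 was even, from 106 to 229 CPM across classes, Dnaja3 of mitochondria had 30.6, 37.2 and 35.6 CPM and Dnaja4 49.1, 42.1 and 39.6 CPM in rod-like and cone-like cells respectively. Dnajb6, which suppresses aggregation, was highest in amacrine-like cells at 386, 342 and 357 CPM and lowest in MG-like cells at 172, 139 and 139 CPM. Dnajb2, a neuronal DNAJ that delivers clients to the proteasome, was highest in cone-like cells at 191, 188 and 184 CPM. Of the 10 classes, the inducible Dnajb1 was highest in endothelial-like and MG-like cells of the rd10 libraries, as set out below. In the endoplasmic reticulum, Dnajb9 had 97.3, 83.8 and 88.3 CPM and Dnajb11 86.1, 77.2 and 72.1 CPM in MG-like cells. Dnajb4 had 114, 115 and 131 CPM in amacrine-like cells, Dnajb5 25.7, 14.7 and 14.9 CPM there, Dnajb12 36.1, 37.2 and 35.3 CPM and Dnajb14 93.7, 74 and 74.4 CPM in MG-like cells, and the 312 UMIs of Dnajb3 came to 3.08 to 4.66 CPM over whole libraries.

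Among the DNAJC genes, those with known roles at synapses and vesicles followed neurons. Dnajc5, the cysteine string protein of synaptic vesicles, had 218, 207 and 209 CPM in cone-like, 205, 166 and 191 CPM in rod-like and 66.3, 64.3 and 60.1 CPM in MG-like cells. Dnajc6, auxilin 1, which starts the uncoating of clathrin vesicles, had 77.7, 61.9 and 89.3 CPM in amacrine-like and 2.41, 2.12 and 3.16 CPM in MG-like cells. Dnajc12 had 139, 163 and 163 CPM in RBC-like and 27.2, 7.76 and 10.3 CPM in endothelial-like cells, and Dnajc21, of ribosome assembly, was highest in OFF cone bipolar-like cells at 123, 141 and 136 CPM. In rod-like cells Dnajc28 had 47.3, 36 and 34 CPM, 5.24-fold its level in all other cells. Glia and vessels led for others: Dnajc1, of the endoplasmic reticulum, had 89.8, 83.9 and 82.5 CPM in MG-like cells and 21.9, 24.9 and 16.7 CPM in RBC-like cells, Dnajc3 163, 172 and 179.7 CPM in endothelial-like cells and Dnajc24, of the diphthamide pathway, 85.2, 81.1 and 81 CPM in MG-like cells. The other DNAJC genes were lower or flatter. Dnajc7 and the splicing-linked Dnajc8 lay between 76.5 and 236 CPM in all classes, Dnajc19 of the mitochondrial import motor between 59.9 and 115 CPM, and Dnajc9, a histone chaperone, between 26.5 and 113 CPM. In MG-like cells of WT, Dnajc15 had 65.4 CPM, Dnajc18 37.7, Dnajc4 31.6, Dnajc2 31, Dnajc30 26.2, Dnajc13 18.7, Dnajc14 16.9, Dnajc17 15.7, Dnajc25 14.5, Dnajc27 13.9, Dnajc11 13.9 and Dnajc16 7.53 CPM, and Dnajc10 had 83.1 CPM in endothelial-like cells.

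The CCT genes were lowest as a sum in MG-like cells among the 10 classes in each library. They summed to 786, 815 and 796 CPM in MG-like cells, 1156, 1230.4 and 1188 CPM in rod-like, 1221, 1213 and 1302 CPM in cone-like and 1218, 1288 and 1289 CPM in RBC-like cells of WT, rd10-vehicle and rd10-TMB. In MG-like cells of WT, Cct6b had only 3 UMIs, and of the other 7 genes Cct4 was lowest at 77.4 CPM, Cct7 had 98.2, Cct8 106, Cct5 116, Cct2 118 and Cct3 134 CPM, and Cct6a was highest at 136 CPM. Cct5 was highest in rod-like cells, at 233, 265 and 248 CPM. Hspd1 and Hspe1, the chaperonin of mitochondria and its lid, were higher in cluster 6 and RBC-like cells than in MG-like cells, with Hspe1 at 374, 379.8 and 415 CPM in cluster 6 and 187, 218 and 233 CPM in MG-like cells, and Hspd1 at 246, 226 and 216 CPM in RBC-like and 116, 129 and 124 CPM in MG-like cells.

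Among the small heat shock genes Hspb1, Hspb8 and Hspb6 were each at least 10-fold higher in 1 of the 10 classes than in all other cells. Outside these classes, Hspb1 was also 10.2-fold higher in mural-like cells, against 16.5-fold in endothelial-like cells. Astrocyte-like cells, also outside them, carried Hspb8, in WT at a level near that of endothelial-like cells. Hspb3 and Hspb7 had too few UMIs to place. Hspb1 was an endothelial and mural gene in WT, at 1039 CPM in endothelial-like cells and 1495 CPM in the 20 mural-like cells, against 36.4 CPM in MG-like cells. Hspb8, the partner of the co-chaperone BAG3, was 24.9-fold higher in endothelial-like cells than in all others, at 30.1 CPM (WT), 73.7 (rd10-vehicle) and 58 (rd10-TMB). Hspb6 was 10.4-fold higher in cone-like cells than in all others, at 267 CPM [241 to 296] for WT, 336 CPM [314 to 359] for rd10-vehicle and 287 CPM [265 to 310.1] for rd10-TMB, with 70.1, 139 and 98.1 CPM in rod-like cells. Hspb2 was at 0 in most neuron classes and had 15, 20.5 and 31 CPM in endothelial-like and 6.02, 9.28 and 11.4 CPM in MG-like cells. Hspb11, which is also the intraflagellar transport protein IFT25, was 2.59-fold higher in MG-like cells than in all others, at 105, 113 and 115 CPM.

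Between rd10-vehicle and WT, a few inducible and small heat shock genes stood out in MG-like cells while most of the module did not. Hspb1, which holds unfolding proteins and binds actin, had 36.4 CPM [30.2 to 43.5] for WT, 144 CPM [139 to 149] for rd10-vehicle and 122 CPM [117 to 127] for rd10-TMB. Dnajb1, the DNAJ partner of inducible HSP70, had 97.6 CPM [87.3 to 109] for WT, 219 CPM [213 to 225] for rd10-vehicle and 207 CPM [200.5 to 214] for rd10-TMB. For both genes the rd10 libraries lay well above WT and near each other, and their intervals did not meet that of WT. The log2 ratio of rd10-vehicle to WT was 1.97 [1.72 to 2.26] for Hspb1, or 3.92-fold, and 1.16 [1.0 to 1.33] for Dnajb1, or 2.24-fold. The Hspb1 ratio was 2.35 with the mean over cells, 2.85 without the 5% of cells with the most UMIs and 3.46 with cells thinned to 1000 UMIs, where few WT cells kept an Hspb1 UMI. Against the Xist-bearing WT cells described above it was 2.28, and 7 of 67 members were then past 1.5-fold higher and 1 lower, against 8.25% and 10.49% of all genes. Hspa1a had 42.8 CPM [36 to 50.4] for WT, 67.5 CPM [64.1 to 71] for rd10-vehicle and 77.8 CPM [73.7 to 82.2] for rd10-TMB, a log2 ratio of 0.65 [0.41 to 0.92]. Hspb6 had 19.6, 34.5 and 28.1 CPM (0.80 [0.45 to 1.21]) and Hspa2 9.34, 16.6 and 15.7 CPM (0.79 [0.30 to 1.41]). On the other side stood Hspa12a, at 6.63, 4.32 and 4.11 CPM, with only 22 UMIs in WT and a ratio of -0.66 [-1.30 to 0.12], whose interval included 0.

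A gene was called past the limit at 1.5-fold with at least 100 UMIs over both libraries, and 67 members had the UMIs in MG-like cells. Of these, 5 were higher in rd10-vehicle, against 7.68% of 11190 genes, and 1 was lower, against 7.3%. The members' median log2 ratio was 0.05 and that of all genes -0.05. The 5 were thus a share close to the background, and the module as a whole did not stand apart. Members inside the limit could still have an interval beyond 0, a rule for which no share of all genes is given. Hspa5 was higher, at 227 CPM [211 to 244] for WT, 305 CPM [298 to 313] for rd10-vehicle and 255 CPM [248 to 263] for rd10-TMB (0.43 [0.32 to 0.54]). Hspa8 was higher too, at 668 CPM [640.3 to 696] for WT, 861 CPM [849 to 874] for rd10-vehicle and 771 CPM [757 to 784] for rd10-TMB (0.37 [0.30 to 0.43]). Hspa13 was lower, at 51.5, 36.2 and 38.9 CPM (-0.52 [-0.75 to -0.26]). Hspb11 (0.11 [-0.05 to 0.28]), Hsp90aa1 (0.11 [0.06 to 0.16]) and Hsp90ab1 (0.05) had small ratios, and the interval of Hsp90aa1 did not include 0.

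By role, the 5 members past the limit higher in MG-like cells stood in 3 sets, and the share of all genes past it in that direction was 7.68%. Of 12 genes of the inducible set that HSF1 is known to act on, 3 were past 1.5-fold higher in rd10-vehicle (Hspb1, Dnajb1 and Hspa1a) and 0 lower, with a median of 0.13, and their sum went from 2919 CPM in WT to 3477 CPM. The other members of that set included Hsph1 at 58.7, 57.5 and 56.2 CPM, Hspa1b at 16, 14 and 14.3 CPM, and Dnajb4 at 70.5, 55 and 59.6 CPM, none of them higher in rd10-vehicle by the limit. Of the 7 small heat shock genes, 4 had the UMIs and 2 were past the limit, Hspb1 and Hspb6, with a sum of 167 CPM in WT and 301 CPM in rd10-vehicle. Among the 9 endoplasmic reticulum members none was past 1.5-fold in either direction, with a median of -0.12, and the same held for the 9 mitochondrial members (0.15) and the 7 CCT subunits (0.08). Of the 8 neuronal and vesicle members, 7 had the UMIs, Hspa2 was past the limit higher and Hspa12a lower.

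Genes outside the module that work with it were read from 2 further lists. Of 34 heat shock factors and co-chaperones, 32 had the UMIs, 3 were past 1.5-fold higher in rd10-vehicle and 1 lower, against 7.68% and 7.3% of all genes. The higher genes were Cryab, the lens and glial alpha-B crystallin, at 1154, 2217 and 2312 CPM (0.94 [0.89 to 0.99]), Bag3, the HSP70 co-chaperone of selective autophagy, at 17.8, 28.9 and 25.5 CPM (0.68 [0.31 to 1.11]), and Bag4 at 15.4, 23.6 and 21.3 CPM (0.59 [0.20 to 1.06]). The lower gene was Fkbp5, a glucocorticoid-induced HSP90 co-chaperone, at 46.7, 26.4 and 27.1 CPM (-0.83 [-1.08 to -0.56]). Hsf1 itself had 13.3, 11.2 and 11.6 CPM (-0.27 [-0.71 to 0.25]), not different by its interval. Of 22 unfolded protein response genes in the matrix, 21 had the UMIs, Ppp1r15a was past the limit higher at 164, 300.5 and 258 CPM and Herpud1 lower at 183, 98.1 and 129 CPM, against the same shares of all genes, and the median was 0.00. Lens crystallin transcripts were also more frequent outside lens-like cells in the rd10 libraries, which alone held lens-like cells: a lens marker sum of 14.8, 76.3 and 50.3 CPM in MG-like cells went with the Cryab values, and Cryab in RBC-like cells was 3.05, 56.2 and 35.2 CPM. The part of this RNA in the Cryab ratio was not tested.

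**Figure D2:**
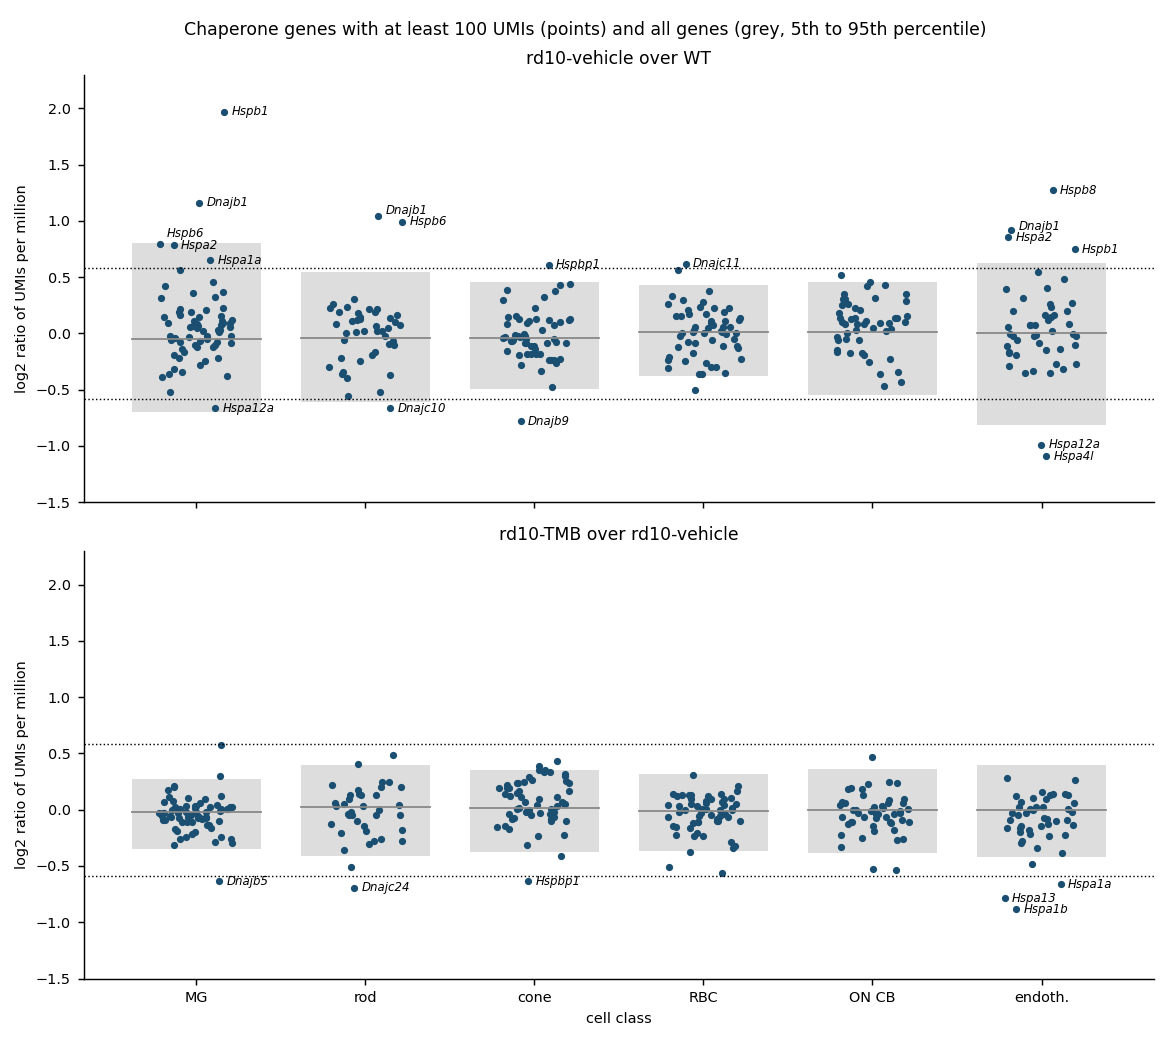
Log2 ratio of each member with at least 100 UMIs in 6 classes, rd10-vehicle over WT above and rd10-TMB over rd10-vehicle below, with the log2 ratio on the vertical axis. Each point is 1 member, the grey band spans the 5th to the 95th percentile of all genes tested, the grey line is their median, and dotted lines mark 1.5-fold. Hspb1 and Dnajb1 stand above the band in MG-like cells in the upper row, and few members leave the band in the lower row.

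Hspb1 in glia came from few cells. Without thinning, 5.09% of WT, 26.4% of rd10-vehicle and 21.7% of rd10-TMB MG-like cells had an Hspb1 UMI, and the 10% of cells with the most held 84.9% of its UMIs in rd10-vehicle and 90.0% in rd10-TMB, up to 132 UMIs in 1 cell. Hsp90aa1, by comparison, was detected in 96.8% to 98.8% of MG-like cells, and the top 10% of cells held 24.5% to 25.5% of its UMIs. With each cell thinned to 1000 UMIs, Hspb1 was seen in 0.949% [0.309 to 2.2] of 527 WT, 7.96% [6.92 to 9.09] of 2476 rd10-vehicle and 5.39% [4.37 to 6.56] of 1727 rd10-TMB cells. At the same depth the share in RBC-like cells, which should lack it, was at most 0.315%. Dnajb1 was more widely spread, in 6.07%, 15% and 14.8% of thinned MG-like cells. In rd10-vehicle, 24.6% of the 130 thinned cells with an Hspa1a UMI also had a Dnajb1 UMI, against 14.5% of the 2346 without, whereas Hspb1 was in 6.15% and 8.06% of these cells. Hspa8 was in 63.1% and 53.1%, Hspa1b in 4.62% and 1.28% and Hsph1 in 8.46% and 5.41% of them. In rd10-TMB Dnajb1 was in 20% of the 90 cells with and 14.5% of the 1637 without an Hspa1a UMI, and in WT in 11.1% of 18 and 5.89% of 509. These differences were not tested.

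Hspb1 was higher in MG-like cells with Lcn2, which encodes lipocalin 2 and is a marker of reactive glia. MG-like cells were split by an Lcn2 UMI, a split chosen after the data had been seen. In cells with an Lcn2 UMI, Hspb1 had 328 CPM in WT (9 cells, 32 UMIs), 302 in rd10-vehicle (653 cells) and 358 in rd10-TMB (300 cells). In cells without, it had 27.6, 64.0 and 46.3 CPM. The WT value rests on few cells, and 1 MG-like cell of WT held 25 Hspb1 UMIs. Dnajb1 was less divided, at 358, 288 and 261 CPM with Lcn2 and 89.7, 184 and 190.2 CPM without. Hspb6 had 42.6 CPM with and 30.4 without Lcn2 in rd10-vehicle, and Hspa1a 74.8 and 63.8 CPM. Cells with an Lcn2 UMI were also deeper, with medians of 10475, 10153 and 11722 UMIs against 6271, 8175 and 9064.5. Without the Lcn2 cells, the log2 ratio of rd10-vehicle to WT was 1.2 for Hspb1, 1.04 for Dnajb1, 0.74 for Hspa1a, 0.67 for Hspa2 and 0.62 for Hspb6.

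**Figure D3:**
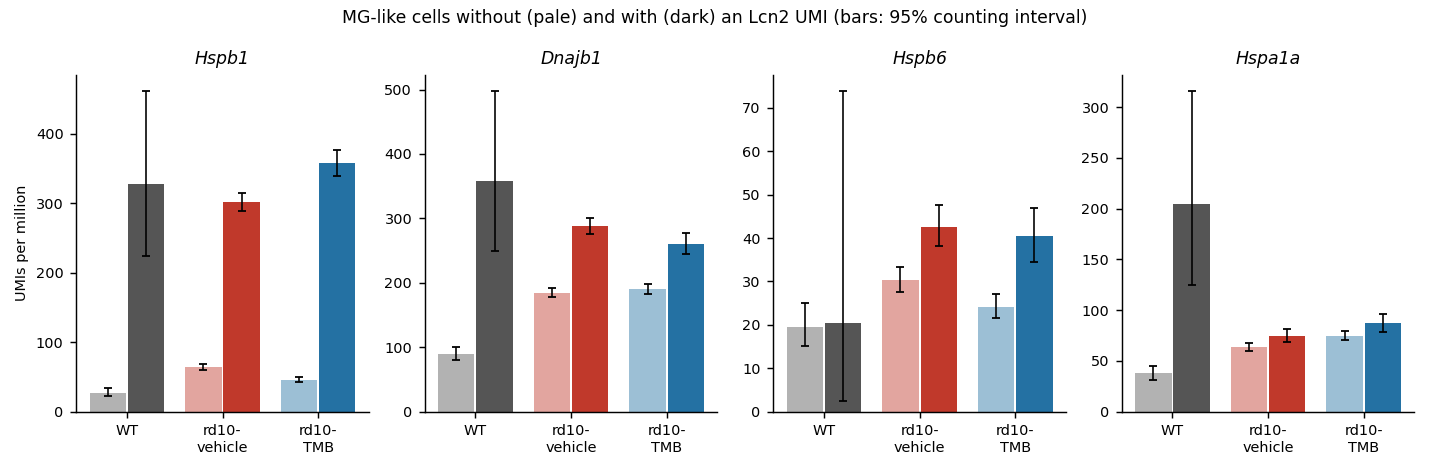
Level of Hspb1, Dnajb1, Hspb6 and Hspa1a in MG-like cells without (pale) and with (dark) an Lcn2 UMI, as CPM on the vertical axis, for the 3 libraries. Lines are 95% counting intervals. Hspb1 is several-fold higher in cells with an Lcn2 UMI in each library (328, 302 and 358 CPM against 27.6, 64.0 and 46.3 CPM), and Dnajb1 without Lcn2 is higher in both rd10 libraries than in WT.

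Immediate-early RNA, which rises during dissociation, moved with these members. In MG-like cells the 20 listed immediate-early genes summed to 23767 CPM (WT), 36272 (rd10-vehicle) and 36030.4 (rd10-TMB), and 11 of 20 were past 1.5-fold higher in rd10-vehicle. Among MG-like cells with 20 to 59 immediate-early UMIs of 1000, a band chosen after the data had been seen (257, 2143 and 1381 cells), the log2 ratio of rd10-vehicle to WT was 1.66 for Hspb1, 0.87 for Dnajb1, 0.47 for Hspa1a, 0.42 for Hspa2, 0.40 for Hspb6 and 0.067 for Hspa12a. Hspb1 and Dnajb1 were past 1.5-fold within the band, and Hspa1a, Hspa2 and Hspb6 were not. The immediate-early sum still differed within the band, at 30716 CPM in WT and 37537 CPM in rd10-vehicle. Endothelial RNA was also looked for, since Hspb1 is high in that class. Of 10 endothelial markers, 9 had a UMI in MG-like cells of WT (Cdh5 was at 0) and all 10 in both rd10 libraries, and the sum was 829 (WT), 658 (rd10-vehicle) and 676 CPM (rd10-TMB). The defining marker Cldn5 was at 0.602, 2.34 and 2.21 CPM. The Hspb1 of endothelial-like cells scaled by Cldn5 came to 0.217, 0.969 and 1.08 CPM of MG-like cells, and scaled by the sum of the 10 markers, some of which MG-like cells may express, to 60.1, 68.4 and 71.4 CPM. Of 10 astrocyte markers, 7 (WT), 9 (rd10-vehicle) and 9 (rd10-TMB) had a UMI in MG-like cells, summing to 2502, 2751 and 2637 CPM, and the defining marker Pax2 was at 0 in all 3 libraries.

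Endothelial-like cells (137, 156 and 100 cells) had the highest Hspb1, Hspa1a and Hspa1b levels of the 10 classes. The inducible Hspa1a (0.54 [0.40 to 0.69] for rd10-vehicle over WT, and -0.15 within the immediate-early band) and Hspa1b (0.20 [-0.10 to 0.50]) were inside the limit there. Hspb1 had 1039 CPM [986 to 1094] for WT, 1746 CPM [1686 to 1808] for rd10-vehicle and 1663 CPM [1592 to 1736] for rd10-TMB, a log2 ratio of rd10-vehicle to WT of 0.75 [0.66 to 0.84]. Dnajb1 had 123, 234 and 192 CPM (0.92 [0.67 to 1.19]), Hspb8 30.1, 73.7 and 58 CPM (1.27 [0.78 to 1.83]) and Hspa2 46.6, 84.8 and 85.9 CPM (0.85 [0.44 to 1.31]). Both rd10 libraries were above WT for these 4. Of the photoreceptor and neuronal members, Hspa4l had 73.8, 34.4 and 37.4 CPM (-1.09 [-1.58 to -0.63]) and Hspa12a 44.4, 22.2 and 30.2 CPM (-0.99 [-1.61 to -0.41]), both lower in rd10-vehicle. Of 48 members tested, 4 were thus past the limit higher, against 5.97% of 5142 genes, and 2 lower, against 8.38%, with a median of 0.01 for members and 0.00 for all genes. Rod markers were at 698, 260.5 and 511 CPM and amacrine markers at 549, 97.5 and 177 CPM in these cells, lower in rd10-vehicle like Hspa4l and Hspa12a. Mural markers, 9 of 9 with a UMI in each library, summed to 6172, 9363 and 9680 CPM, and immediate-early genes to 34859.5, 57799.5 and 58329.6 CPM, with 15 of 19 tested past the limit higher. Among the cells with more endothelial than mural marker UMIs (78, 125 and 70 cells), a subset chosen after the data had been seen, the ratio was 0.46 for Hspb1, 0.71 for Dnajb1, 0.94 for Hspb8, 0.75 for Hspa2, -0.03 for Hspa4l and 0.37 for Hspa12a. Within the immediate-early band (57, 97 and 54 cells) it was 0.26 for Hspb1, 0.53 for Dnajb1, 0.91 for Hspb8 and 0.63 for Hspa2. The immediate-early sum still differed there, at 39782 CPM in WT and 49744 CPM in rd10-vehicle. Within that band Hspb8 had fewer than the 100 UMIs needed, and 1 of 37 members was past the limit higher, against 3.99% of all genes. Against the Xist-bearing WT cells, 3 of 45 members were past the limit higher and 1 lower, against 3.7% and 4.6% of all genes, and the ratio was 0.60 for Hspb1, 0.39 for Hspa2 and -0.21 for Hspa12a.

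In rod-like cells Dnajb1 and Hspb6 had the largest ratios of rd10-vehicle to WT among the members with at least 100 UMIs. Dnajc24 had a larger one (1.32) with fewer UMIs. Dnajb1 had 34.5 CPM [26.4 to 44.2] for WT, 70.9 CPM [54.2 to 91] for rd10-vehicle and 68.8 CPM [55.1 to 84.9] for rd10-TMB, a log2 ratio of rd10-vehicle to WT of 1.04 [0.51 to 1.57] from 61 and 62 UMIs. Hspb6 had 70.1 CPM [58.4 to 83.4] for WT, 139 CPM [116 to 167] for rd10-vehicle and 98.1 CPM [81.6 to 117] for rd10-TMB (0.99 [0.62 to 1.36]). Both were higher in each rd10 library than in WT, with rd10-TMB between the others for Hspb6. Across the alternative settings the ratio of rd10-vehicle to WT lay between 0.53 and 1.46 for Dnajb1, at its lower end inside the limit, and between 0.93 and 1.07 for Hspb6. In cells with at least 1000 genes, 1 of 25 members was past the limit higher, against 5.58% of all genes. Dnajc10, the disulfide reductase of the endoplasmic reticulum, was lower at 47.3, 29 and 31.7 CPM (-0.66 [-1.41 to -0.04]), and Dnajc6 (-0.56) and Dnajc21 (-0.52) were just inside the limit. The Dnajc10 ratio was -0.03 in cells with at least 1000 genes and -0.58 in cells whose mitochondrial share did not exceed 10%, and no member was past the limit lower in either. Of 44 members tested, 2 were past the limit higher, against 4.35% of 4279 genes, and 1 lower, against 5.54%, with medians of 0.04 for members and -0.04 for all genes. Müller glia markers, 12 of 12 with a UMI, summed to 284, 819 and 684 CPM in rod-like cells and cone markers to 544, 1186 and 735 CPM, so both moved with the 2 genes. Scaled by these sums, the Dnajb1 of MG-like cells came to 0.629, 3.67 and 2.94 CPM and the Hspb6 of cone-like cells to 3.07, 9.23 and 4.73 CPM. Immediate-early genes summed to 1860.3, 4752 and 4367 CPM, and the part of these genes and markers in the ratios of rod-like cells was not tested.

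Cone-like cells differed little. Hspa12a had 118, 159.8 and 164 CPM (0.43 [0.18 to 0.71] for rd10-vehicle over WT) and Hspb6, already high in WT, 267, 336 and 287 CPM (0.33 [0.15 to 0.51]). Past the limit were Hspbp1, a nucleotide exchange factor, higher at 18.9, 29.6 and 18.9 CPM (0.61 [-0.01 to 1.34]), and Dnajb9, an endoplasmic reticulum DNAJ of the unfolded protein response, lower at 41.4, 24.2 and 31.8 CPM (-0.78 [-1.31 to -0.24]). The interval of Hspbp1 included 0, and with cells thinned to 1000 UMIs its ratio was -0.22. These were 1 of 56 members higher, against 2.64% of 5382 genes, and 1 lower, against 2.69%, with medians of -0.05 for members and -0.04 for all genes. Next in order were Hspb11 (0.44) among the higher and Hspa1a (-0.48) and Dnaja3 (-0.33) among the lower. Immediate-early genes summed to 4392, 9222 and 7071 CPM, with 13 of 14 past the limit higher in rd10-vehicle, while Dnajb1 of the same cells had 64.6, 55 and 49.7 CPM (-0.24 [-0.62 to 0.16]).

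Among bipolar cells, Dnaja1 differed with a narrow interval. In RBC-like cells it was lower in both rd10 libraries than in WT, with a log2 ratio of rd10-vehicle to WT of -0.50 [-0.58 to -0.43], just inside the 1.5-fold limit, and of rd10-TMB to WT of -0.38 [-0.45 to -0.30]. In ON cone bipolar-like cells Dnaja1 had 388, 343 and 359 CPM (-0.18 [-0.37 to 0.02]). Dnajc11, of the mitochondrial contact site complex, was past the limit in RBC-like cells, at 21.4, 33.3 and 25.6 CPM (0.62 [0.09 to 1.21]), and Hsph1 just inside it, at 30.5, 45.5 and 35.9 CPM (0.56 [0.12 to 1.05]). This was 1 of 56 members higher, against 2.23% of 5963 genes, and none lower, against 1.21%, with medians of 0.02 and 0.01. Across the alternative settings the Dnajc11 ratio lay between 0.39 and 0.68, at its lower end inside the limit. Dnajb2 (-0.36) and Dnajc27 (-0.36) were the next lowest and Hspbp1 (0.37) the next highest. In ON cone bipolar-like cells no member of 49 was past the limit in either direction, against 2.33% higher and 4.08% lower of 4505 genes, with medians of 0.10 and 0.01. Hsp90b1 was nevertheless higher there with a narrow interval, at 416, 571 and 479.7 CPM (0.46 [0.29 to 0.63]), followed by Dnajc9 (0.52 [0.08 to 0.99]) and Dnajb2 (0.43), and Hspa12a was lower, at 239, 177 and 172 CPM (-0.43 [-0.69 to -0.17]), as were Dnajc27 (-0.47) and Dnajc13 (-0.36). In OFF cone bipolar-like cells Dnajc30 (0.79 [0.20 to 1.42]) and Dnajc15 (0.61 [0.08 to 1.17]) were past the limit higher and Dnajb4 lower (-0.70 [-1.16 to -0.27]). These were 2 of 42 members higher, against 1.63% of 3937 genes, and 1 lower, against 0.965%.

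Hspa12a gave different values by class. It was lower in rd10-vehicle than in WT in RBC-like (-0.24), ON cone bipolar-like (-0.43), cluster 10 (-0.44) and amacrine-like cells (-2.08 [-3.60 to -1.21]), and higher in cone-like cells (0.43). The amacrine-like value rested on 7 UMIs in rd10-vehicle against 306 in WT, at 99.5, 20.6 and 47.6 CPM, and that class joined 2 clusters in different proportions, of 461 and 295 cells in WT and 43 and 62 in rd10-vehicle. The difference between classes was not tested.

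Between rd10-TMB and rd10-vehicle the module differed less, and ratios here are log2, rd10-TMB over rd10-vehicle. In MG-like cells Hspb1 went from 144 CPM (rd10-vehicle) to 122 CPM (rd10-TMB), or -0.24 [-0.32 to -0.16], Hspa5 from 305 to 255 CPM (-0.26 [-0.31 to -0.20]), Hspb6 from 34.5 to 28.1 CPM (-0.30 [-0.47 to -0.13]) and Hspa8 from 861 to 771 CPM (-0.16 [-0.19 to -0.13]). These 4 lay between WT and rd10-vehicle in rd10-TMB. Dnajb1 differed less, at -0.08 [-0.14 to -0.02], and Hspa1a was higher in rd10-TMB, at 0.21 [0.10 to 0.31]. Only Dnajb5, a low DNAJ gene with 53 and 110 UMIs, was past 1.5-fold, lower in rd10-TMB at -0.64 [-1.15 to -0.16]. With cells thinned to 1000 UMIs its ratio was -0.22, and with the mean over cells -0.54, inside the limit. Another member was past the limit higher with the mean over cells, with median-of-ratios scaling and when mitochondrial and ribosomal protein genes were left out of the totals. The main count was 0 of 69 members higher, against 0.58% of 11890 genes, and 1 lower, against 1.43%, with medians of -0.03 and -0.02. At the ends of the order stood Dnajc6 (0.57 [-0.02 to 1.18]), Hspb2 (0.30 [0.00 to 0.59]) and Hspbap1 (-0.31). Relative to WT, a library shared with the ratios of rd10-vehicle, rd10-TMB had log2 ratios of 1.73 for Hspb1, 1.08 for Dnajb1, 0.86 for Hspb2, 0.85 for Hspa1a and 0.71 for Hspa2. None of the 6 role sets had a gene past the limit between the rd10 libraries in MG-like cells apart from Dnajb5.

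Photoreceptors of the rd10 libraries differed in single genes. In rod-like cells Dnajc24 had, with vehicle, 62.7 CPM and, with TMB, 38.8 CPM (-0.69 [-1.28 to -0.11]), the 1 of 38 members past the limit lower, against 1.81% of 3473 genes, with 0 higher, against 1.04%. In WT it had 25 CPM. Hspb6 (-0.51 [-0.88 to -0.13]) and Dnajc18 (-0.36) were the next lowest, and Hspa1a (0.48 [0.09 to 0.91]), Dnajc21 (0.40) and Dnaja1 (0.24) the highest. In cone-like cells Hspbp1 was past the limit lower (-0.64 [-1.24 to -0.08]), 1 of 58 members against 1.31% of 5898 genes, with 0 higher against 0.678%. Dnajc11 (-0.41) and Dnajc4 (-0.31) followed, and Hspa1a (0.43), Dnajb9 (0.39) and Dnaja2 (0.35 [0.15 to 0.55]) were the highest. With cells thinned to 1000 UMIs the Hspbp1 ratio of cone-like cells was 0.42. In cells whose mitochondrial share did not exceed 10%, 0 members of that class were past the limit lower. The sum of the HSP70 genes went from 1814 to 2077 CPM in cone-like, from 1098 to 1259 CPM in rod-like cells, from 1734 to 2050.2 CPM in cluster 6, from 1412 to 1284 CPM in MG-like and from 3209 to 2935 CPM in endothelial-like cells. In ON cone bipolar-like cells it had 1787 and 1789 CPM. In cone-like cells the CCT sum also went from 1213 to 1302 CPM and the DNAJA sum from 550.5 to 681 CPM. Medians of all members were 0.06 in cone-like and -0.01 in rod-like cells, against 0.02 and 0.03 for all genes.

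In RBC-like and ON cone bipolar-like cells no member was past the limit between the rd10 libraries. This was 0 of 57 in RBC-like cells, against 0.53% higher and 1.01% lower of 6421 genes, and 0 of 49 in ON cone bipolar-like cells, against 1.04% higher and 0.739% lower of 4734 genes. In OFF cone bipolar-like cells Dnajb1 was past it lower (-0.74 [-1.34 to -0.18]) and Dnajb4 higher (0.59 [0.14 to 1.06]). Each was 1 of 41 members, against 1% lower and 0.87% higher of 3793 genes. Dnaja1 in RBC-like cells was slightly nearer WT in rd10-TMB, at 0.13 [0.05 to 0.20]. The lowest ratios in RBC-like cells were those of Dnajc1 (-0.57), Hspbp1 (-0.51) and Dnajc11 (-0.38), and the highest those of Dnajc15 (0.31), Hspb11 (0.21) and Hspa9 (0.16). In ON cone bipolar-like cells Dnajb12 (-0.54), Dnajc6 (-0.53) and Dnajc10 (-0.33) were lowest and Dnajc27 (0.46), Cct4 (0.24) and Hspb11 (0.24) highest.

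In endothelial-like cells both inducible HSP70 genes had lower levels with TMB than with vehicle. Hspa1a had 451 CPM [417 to 488] for WT, 658 CPM [621 to 696] for rd10-vehicle and 416 CPM [381 to 453] for rd10-TMB, or -0.66 [-0.81 to -0.51], and Hspa1b 112 CPM [94.9 to 131] for WT, 129 CPM [113 to 146] for rd10-vehicle and 69.2 CPM [55.4 to 85.3] for rd10-TMB, or -0.88 [-1.27 to -0.53], as log2 ratios of the rd10-TMB to the rd10-vehicle library. In rd10-TMB Hspa1a was near WT and Hspa1b below it. The rd10-vehicle library is shared by these ratios and its ratios to WT. Hspa13, of the endoplasmic reticulum, was lower too, at 34.4, 46 and 26.2 CPM (-0.78 [-1.44 to -0.21]). These were 3 of 46 members, against 1.7% of 4815 genes, with 0 higher, against 1.31%, and medians of -0.08 for members and -0.01 for all genes. Hspb1 (-0.07 [-0.15 to 0.01]), Dnajb1 (-0.28 [-0.52 to -0.05]) and Hspb8 (-0.34 [-0.78 to 0.08]) were inside the limit. The 10% of cells with the most Hspa1a held 55% of its UMIs in rd10-vehicle, with up to 99 in 1 cell, and 39.2% in rd10-TMB, while 73.7% and 78% of the cells had a Hspa1a UMI. Without the 5% of cells with the most UMIs the ratio was -0.44 for Hspa1a, inside the limit, and -0.80 for Hspa1b, and 1 member was past the limit lower. With the mean over cells it was -0.37 for Hspa1a and -0.70 for Hspa1b. The immediate-early sum of this class was nearly the same in both rd10 libraries. Among cells with more endothelial than mural marker UMIs the ratio was -0.77 for Hspa1a and -1.08 for Hspa1b, and within the immediate-early band it was -0.18 and -0.56, inside the limit for both. Within that band 0 members were past the limit lower. Across the alternative settings the Hspa1b ratio lay between -1.08 and -0.30.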

How the data were processed

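Papain-dissociated retinal cells were sequenced as 1 droplet library per group, with groups taken from the sample titles. The submitters' processing notes name Cell Ranger 6.0.1, Seurat 3.2.2 and mm10. The authors removed doublets with Scrublet, kept cells with at least 500 genes and clustered after Harmony. Values in the deposited matrix are on a natural log scale, ln of 1 plus UMIs scaled to 10000 per cell, as made by the authors. Total UMI counts, library and cluster number of each cell came from a second deposited table. All 32620606 of 32620606 matrix entries returned to whole UMIs within 0.001 UMI, and the counts matched the deposited totals in 15242 of 15242 cells. Libraries held 18882951 to 37002532 UMIs, and mitochondrial genes took 6.43% to 6.65%. Of 15217 distinct cell barcodes, 25 occurred in more than 1 library. No per-sample column was of unknown sample (0).

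Members and lists were chosen with earlier results of these data known. For 1 member no result is reported here. Clusters were named from marker lists (at least 3 markers 2-fold higher than elsewhere and at 20 CPM), so names may differ from the study's. UMIs were summed per class and library. Log2 ratios had 1 UMI added per library, and calls needed 100 UMIs over both libraries and 1.5-fold. Intervals are exact Poisson for levels, Clopper-Pearson for shares and conditional binomial for ratios, at 95%. Named were all members of the role lists with at least 100 UMIs, the 3 highest and 3 lowest members per main class and comparison, members at least 4-fold higher in a class, and other list genes past 1.5-fold in MG-like cells. Others, such as those named to give levels by class, were chosen after their values were seen. For shares, cells were thinned to 1000 UMIs. The authors' tests over cells (MAST) were not used. Of the alternatives, 14 were listed with the design and 3 were added after seeing the data. The scripts were tested on simulated data. Python 3.11.15, numpy 2.4.6, pandas 2.3.3, scipy 1.17.1 and matplotlib 3.10.9 were used, with RefSeq promoters and annotation of GRCm38.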

Additional observations from a re-analysis of the deposited data

Results flagged for a closer look

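Hspb1 differed between WT and rd10-vehicle in opposite directions by class. Its log2 ratio of rd10-vehicle over WT was 1.97 in MG-like and 0.75 in endothelial-like cells but -1.24 in amacrine-like cells, where it rested on 4 UMIs in rd10-vehicle and 106 in WT. The amacrine-like class joined 2 clusters, of 461 and 295 cells in WT and 43 and 62 in rd10-vehicle. The difference between classes was not tested.

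Other values were seen in classes too small to be compared, as ratios of both rd10 libraries together over WT. In astrocyte-like cells (20 WT cells) the log2 ratio was 0.89 for Dnajb1, 1.44 for Cct5 and 0.93 for Hspa1a. In microglia-like cells it was 2.15 for Hspa5, 1.31 for Dnaja1, 2.86 for Dnajb1, 0.91 for Hspa8, 1.77 for Hsp90b1, 1.51 for Hspa1a and 0.86 for Hsp90ab1, but the 6 WT cells carried 0 of 10 microglial markers. In mural-like cells (20 WT cells) Dnaja1 had a ratio of 1.2, and in cluster 18 (3 WT cells) Dnajb1 had 1.99. Cluster 20, which held 9 rd10-vehicle cells and no other, had 1416 CPM of Hspb1, 1645 CPM of Dnajb1 and 344 CPM of Hspa1a. None of these ratios was tested.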

How the results depend on the processing

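No paired analysis was possible because each group had 1 library. The members' median log2 ratio stayed between the medians of the members' lower and upper bounds in 146 of 146 recomputations, and in MG-like cells for rd10-vehicle over WT it lay between 0.00 and 0.12. It moved more in other classes, between -0.02 and 0.34 in endothelial-like and between 0.04 and 0.25 in ON cone bipolar-like cells for the same comparison. Of 665 recomputed ratios of single members, 592 stayed within their main interval, 68 moved beyond it and 5 reversed. A ratio that stayed within it could still cross the 1.5-fold limit. For rd10-TMB over rd10-vehicle, that of Hspa1b in endothelial-like cells went from -0.88 to -0.56 within the immediate-early band. Hspb1 in MG-like cells lay between 1.2 and 3.46, Dnajb1 between 0.87 and 1.23, Hspb6 between 0.40 and 1.59, Hspa1a between 0.47 and 1.0 and Hspa2 between 0.42 and 0.89. Dnajb1 in rod-like cells lay between 0.53 and 1.46 and Dnaja1 in RBC-like cells between -0.55 and -0.45. With cells thinned to 1000 UMIs, Hspbp1 in cone-like cells reversed to -0.22 for rd10-vehicle over WT and to 0.42 for rd10-TMB over rd10-vehicle. Hspa12a reversed to 0.37 in endothelial-like cells with more endothelial than mural marker UMIs, and within the immediate-early band to 0.47 in endothelial-like and 0.067 in MG-like cells. The cause was not tested. Of 316 counts of members past the limit, 95 moved by over 1.5 times. In MG-like cells, 2 to 7 members were past it higher and 0 to 2 lower in rd10-vehicle, and in endothelial-like cells 1 to 7 and 0 to 5. Median-of-ratios scaling moved the background split: of all genes, 8.88% were then higher and 5.80% lower in MG-like cells of rd10-vehicle, 5.54% and 3.69% in rod-like, 3.64% and 1.86% in cone-like, 3.02% and 3.17% in ON cone bipolar-like and 7.88% and 7.25% in endothelial-like cells. In MG-like cells 6 members were then higher and 1 lower, and in endothelial-like cells 5 and 2. Depth limited the low members most, since 7 had fewer than 100 UMIs in all.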

Other observations

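In smaller classes, members are given here as values only, with 1 library per group and no test. In mural-like cells (20, 25 and 22 cells) Hspb1 had 1495 CPM in WT, 1699 with vehicle and 1696 with TMB, and Hspa1a had 1163, 491 and 875 CPM. In astrocyte-like cells (20, 88 and 33 cells) Hspb1 had 191, 302 and 188 CPM, and Hspb8 had 33.9, 51.2 and 23.1 CPM from 11, 72 and 13 UMIs. In microglia-like cells of the rd10 libraries (52 and 30 cells) Hspa5 had 1504 CPM with vehicle and 1199 with TMB, and Hspa8 had 2341 and 2027 CPM. In RPE-like cells (13, 35 and 16 cells) Hsp90b1 had 829, 780.4 and 639 CPM from 40, 109 and 27 UMIs.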
